A study of Homo sapiens with 15 samples.

Results

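The glycolysis and TCA cycle genes were followed in THP-1 cells, an established human monocytic leukaemia line, after stimulation with bacterial extracellular vesicles (BEVs). The set holds 38 genes chosen by gene symbol: 4 carriers of glucose and lactate, HIF1A, 3 hexokinases, 7 genes of the upper and 6 of the lower part of glycolysis, the 2 enzymes that set fructose 2,6-bisphosphate, 2 lactate dehydrogenase subunits, 4 genes of pyruvate dehydrogenase and its kinase, and 9 of the TCA cycle. All 38 were found among the 60286 genes of the count table, and all 38 were among the 17198 genes with enough counts to be tested. The cells are labelled WT, and the libraries were made from total RNA extracts.

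The 5 groups had 3 libraries each. Cells that received PBS alone served as the non-stimulated control and are called NC. E. coli BEVs at 1 μg/mL were given to 2 groups, EUC with vesicles isolated by ultracentrifugation (UC) and EPL with vesicles isolated with ε-poly-L-lysine (PL). S. aureus BEVs at 10 μg/mL were given to the other 2, SUC (isolated by UC) and SPL (isolated by PL). The study's methods give 6 h of incubation, while the labels write Day 0. Species and dose changed together, so they cannot be told apart. No source says that the 3 libraries of a group came from separately grown cultures, so p-values measure the spread between these libraries.

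Glycolysis splits glucose into pyruvate in the cytosol. Pyruvate is then either reduced to lactate, which leaves the cell through monocarboxylate carriers, or oxidised in the mitochondrion by the pyruvate dehydrogenase complex and the TCA cycle. Monocytes and macrophages that sense bacterial products are known for a shift towards glucose uptake and lactate release, and HIF-1 alpha, the protein of HIF1A, is a transcription factor known to act on many glycolytic genes.

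The libraries held 14399421 to 16637345 counts on genes. Mitochondrial genes took 3.71% to 3.97% of the counts in NC and 3.90% to 4.57% in stimulated cells. Of 10 monocytic marker genes, 9 reached 1 CPM in every library, where CPM is a gene's count scaled to the size of the library after TMM normalisation, while CD68 stayed below it in all. The sum of the 10 was 1286 to 1308 CPM in NC and 1759 to 2290 CPM in stimulated cells. SPI1, CSF1R and CD14 were higher in stimulated cells, CD14 at 3.19 to 4.52 CPM in NC and 6.07 to 9.89 CPM after stimulation. CD33, MPO, LYZ and ITGAM had lower means in every stimulated group than in NC. The summed markers of T cells, erythroid, epithelial and fibroblast cells reached at most 8.58 CPM, and those of B cells 27.0 CPM, most of it PAX5, and the T cell, B cell and fibroblast sums were higher in part or all of the stimulated libraries. Their part in the results was not tested. Within EUC, EPL and SUC, the libraries least like the others of their group were EUC3, EPL1 and SUC3, with a mean Pearson correlation of 0.978, 0.982 and 0.983 with them (EUC1 had 0.980), so counts of genes that changed are also given without these 3. In bulk RNA, fewer cells that express a gene and less RNA per cell cannot be told apart.

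Promoters were read for 36 of the 38 genes from RefSeq on GRCh38.p14, as the 250 bases before the RefSeq start. Other starts of these genes and more distant sequence were not searched. OGDH and SLC2A3 were not matched. The windows were searched on both strands for ACGTG, the core of the sites that HIF-1 binds. The kappa B consensus, the class of site that NF-kappa B binds, was searched likewise. The letters ACGTG also lie within the E-box CACGTG, which other factors bind. ACGTG was in the promoters of 10 of the 36 genes, beside 18.5% of 35116 promoters. The kappa B consensus was in 6 of the 36, beside 9.96% of all, and CACGTG was in 4 of the 36, beside 6.34%. SLC2A6, SLC16A3, HIF1A, PFKFB3 and PKM, the 5 genes that rose in all 4 stimulated groups below, held neither ACGTG nor the kappa B consensus in this window. Of the 3 genes that fell in all 4, LDHA held ACGTG at 3 places, DLAT at 1 place and HK3 at none, and ACGTG was also in the promoters of PGK1, HK2 and GAPDH, which passed the test in no group. The promoters of the 5 genes that rose and the 3 that fell in every group, which carry the changes described here, are printed 5′ to 3′ on the gene's strand, with capitals for each place that matched ACGTG on either strand. They lie at chr9:133479100-133479349, minus strand for SLC2A6, at chr17:82228185-82228434, plus strand for SLC16A3, at chr14:61695263-61695512, plus strand for HIF1A, at chr10:6144671-6144920, plus strand for PFKFB3, at chr15:72231191-72231440, minus strand for PKM, at chr5:176899347-176899596, minus strand for HK3, at chr11:18394313-18394562, plus strand for LDHA and at chr11:112025158-112025407, plus strand for DLAT.
SLC2A6: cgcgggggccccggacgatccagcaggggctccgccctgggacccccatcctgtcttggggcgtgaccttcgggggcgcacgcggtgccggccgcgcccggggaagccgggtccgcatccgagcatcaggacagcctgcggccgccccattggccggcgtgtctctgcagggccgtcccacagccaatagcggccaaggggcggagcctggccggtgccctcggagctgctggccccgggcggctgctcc
SLC16A3: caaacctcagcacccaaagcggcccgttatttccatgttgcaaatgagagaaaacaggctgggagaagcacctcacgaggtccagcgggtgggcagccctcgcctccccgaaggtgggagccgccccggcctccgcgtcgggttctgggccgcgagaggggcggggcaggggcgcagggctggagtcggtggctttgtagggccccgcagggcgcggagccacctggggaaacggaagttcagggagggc
HIF1A: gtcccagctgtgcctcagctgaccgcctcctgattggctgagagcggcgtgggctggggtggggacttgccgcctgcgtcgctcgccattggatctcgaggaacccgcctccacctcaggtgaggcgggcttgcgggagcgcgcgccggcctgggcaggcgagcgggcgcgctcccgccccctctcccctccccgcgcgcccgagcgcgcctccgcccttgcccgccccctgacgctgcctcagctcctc
PFKFB3: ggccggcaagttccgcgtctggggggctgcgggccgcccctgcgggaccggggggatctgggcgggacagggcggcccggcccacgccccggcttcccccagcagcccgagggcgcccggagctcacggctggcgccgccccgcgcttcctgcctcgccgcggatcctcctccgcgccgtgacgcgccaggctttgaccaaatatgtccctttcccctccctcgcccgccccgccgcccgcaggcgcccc
PKM: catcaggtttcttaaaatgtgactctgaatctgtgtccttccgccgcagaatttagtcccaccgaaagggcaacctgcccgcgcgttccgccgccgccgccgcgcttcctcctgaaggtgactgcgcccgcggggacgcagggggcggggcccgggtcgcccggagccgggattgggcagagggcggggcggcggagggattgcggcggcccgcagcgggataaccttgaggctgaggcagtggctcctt
HK3: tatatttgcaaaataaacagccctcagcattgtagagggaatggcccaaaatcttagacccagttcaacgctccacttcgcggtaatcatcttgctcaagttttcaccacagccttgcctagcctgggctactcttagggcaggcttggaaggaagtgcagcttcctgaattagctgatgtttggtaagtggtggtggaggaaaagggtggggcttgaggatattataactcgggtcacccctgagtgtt
LDHA: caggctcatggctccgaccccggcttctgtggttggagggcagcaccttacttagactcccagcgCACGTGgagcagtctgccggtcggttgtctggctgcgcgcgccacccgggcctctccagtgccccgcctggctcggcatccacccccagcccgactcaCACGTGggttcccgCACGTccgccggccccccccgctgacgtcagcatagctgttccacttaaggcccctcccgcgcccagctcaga
DLAT: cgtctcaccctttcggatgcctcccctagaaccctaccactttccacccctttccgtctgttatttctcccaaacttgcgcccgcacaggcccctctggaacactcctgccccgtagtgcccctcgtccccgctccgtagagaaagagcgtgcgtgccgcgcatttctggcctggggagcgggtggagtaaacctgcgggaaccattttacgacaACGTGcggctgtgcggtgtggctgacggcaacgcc
The places in LDHA begin 185, 87 and 73 bases before the start, and the first 2 of them are whole CACGTG. A match of letters is a description of the sequence and was not tested as a binding site.

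BEV stimulation changed a few of the 38 genes strongly, and 25 of them passed the test in no group. A gene is written as rising or falling where the adjusted p of edgeR's quasi-likelihood test was at most 0.01 over all 17198 genes, and as a DEG (differentially expressed gene) where it also changed at least 2-fold. Compared with NC, 6 of the 38 genes rose and 3 fell in EUC, where 16.5% of all tested genes rose and 14.0% fell. In EPL 6 rose and 6 fell, beside 16.0% and 13.2% of all genes. In SUC 5 rose and 4 fell, beside 12.4% and 9.15%, and in SPL 5 rose and 3 fell, beside 13.3% and 10.6%. The share that rose was thus close to that of all genes in each group. The median log2 fold change of the 38 genes was -0.05, -0.03, -0.02 and -0.08 in EUC, EPL, SUC and SPL, and that of all genes lay between -0.01 and 0.01.

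SLC2A6, SLC16A3, HIF1A, PFKFB3 and PKM rose in all 4 groups, and SLC2A1 rose in EUC and EPL. HK3, LDHA and DLAT fell in all 4. The shares of all tested genes that rose in all 4, fell in all 4 or passed in none were not computed, so these counts have no background beside them. PFKFB4 fell in SUC, and PDHA1, IDH2 and MDH1 fell in EPL. The other 25 genes passed the test in none of the 4 comparisons, with log2 fold changes from -0.59 to 0.60. The DEGs were 5 in EUC and 5 in EPL, where 9.43% and 9.38% of all genes were up-regulated DEGs, and 3 in SUC and 3 in SPL, beside 6.82% and 7.76%. No gene of the set was a down-regulated DEG by edgeR in any of the 4 comparisons, where 5.75%, 5.15%, 3.06% and 3.7% of all genes were, since the lowest log2 fold change was -0.83 whatever its p. The 4 comparisons share the NC libraries, so they are not independent of each other. In all 12 stimulated libraries, 7 genes lay above every NC library and 3 lay below, while 17.5% and 16.1% of all tested genes did so.

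**Figure D1:**
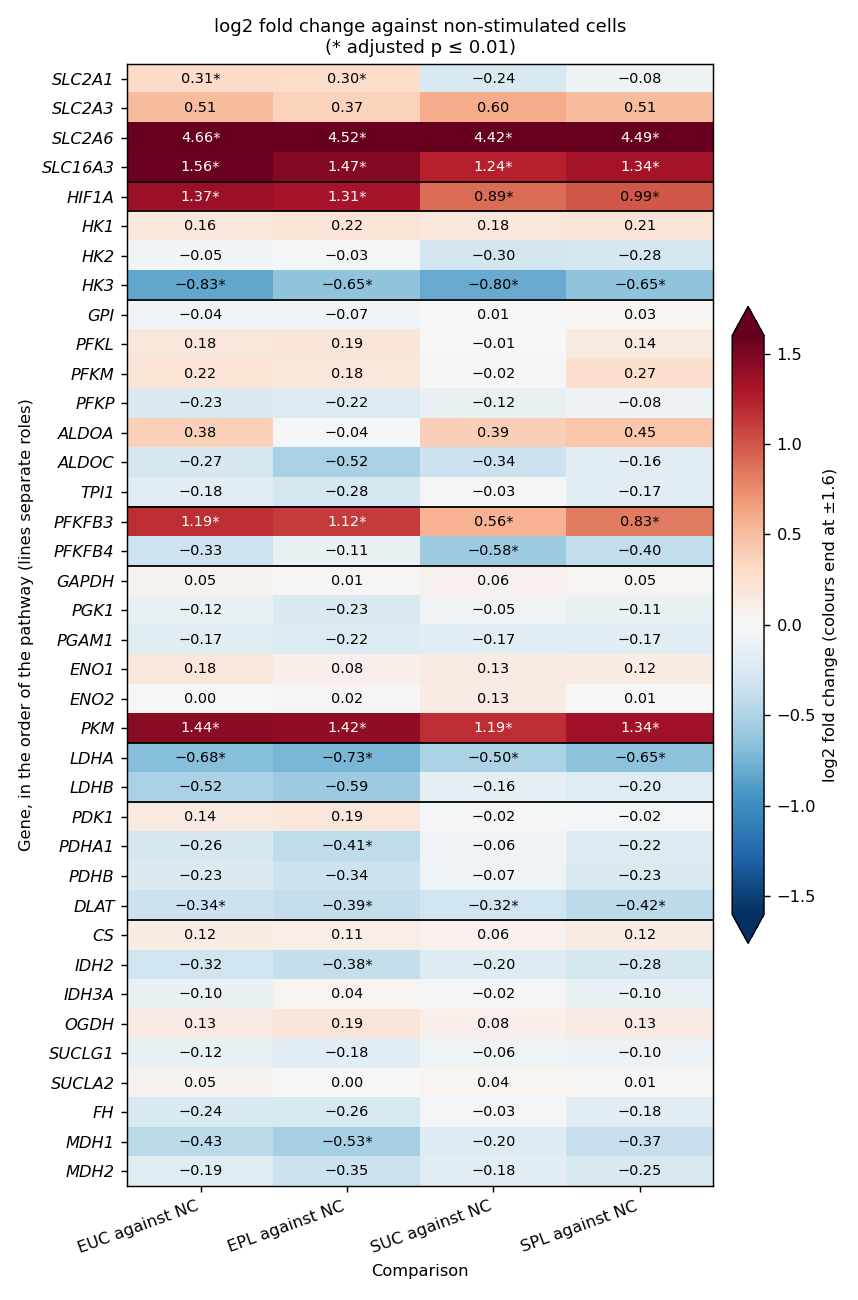
The colours and the printed values give the log2 fold change of each of the 38 genes (rows, in the order of the pathway) in EUC, EPL, SUC and SPL against NC (columns), and an asterisk marks an adjusted p of at most 0.01. SLC2A6 stands apart at 4.42 to 4.66, and every row of upper glycolysis and the TCA cycle lies within 0.6 of 0.

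The counts of genes that fell depended on the scaling and on single libraries, while those that rose did not move by more than 1.5-fold. With total counts in place of TMM scaling, the median of all genes moved by -0.16, -0.12, -0.12 and -0.11 in EUC, EPL, SUC and SPL, and 5 rose and 12 fell in EUC, 5 and 13 in EPL, 5 and 7 in SUC, and 5 and 8 in SPL. Of all genes 12.8%, 13%, 10.2% and 11% then rose, and 20.9%, 18.9%, 13.4% and 15.5% fell. With upper quartile scaling 5 rose and 7 fell in EUC, and 5 and 11 in EPL. Of all genes 14.2% and 14% then rose in EUC and EPL, and 17.9% and 16.9% fell. Without EUC3, EPL1 and SUC3, which was decided after seeing the data, 7 rose and 12 fell in EUC, 6 and 14 in EPL, 5 and 9 in SUC, and 6 and 8 in SPL. Of all genes 19.5%, 20.5%, 16% and 18.4% then rose in EUC, EPL, SUC and SPL, and 18.5%, 19.3%, 13.1% and 16.8% fell. The DEGs remained 5, 5, 3 and 3 in number, all up-regulated, beside 1726, 1724, 1238 and 1441 of all 17584 genes. Without EUC3 alone 5 fell in EUC. In EPL, 2 fell without NC2, and 3 fell without NC3, EPL2 or EPL3. In SUC, 2 fell without NC1, NC2, SUC1 or SUC2.

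The carriers held the largest change. SLC2A6 (ENSG00000160326, chr9:133471094-133479127, minus strand, GENCODE 44 on hg38) encodes GLUT6, a hexose carrier found largely on internal membranes of leukocytes. Its TMM-normalised level was 19.7, 16.8 and 20.2 CPM in NC, 448, 486 and 497 in EUC, 495, 425 and 383 in EPL, 422, 372 and 419 in SUC, 432, 431 and 415 in SPL. All 12 stimulated libraries lay far above the 3 NC libraries. Among them, EUC lay above SUC and SPL, and EPL overlapped with each of the others. The log2 fold change against NC was 4.66 ± 0.114 (EUC), 4.52 ± 0.113 (EPL), 4.42 ± 0.113 (SUC) and 4.49 ± 0.113 (SPL) (± SE), which is 25.3-, 23.0-, 21.4- and 22.5-fold. The adjusted p was 6.32e-15, 9.4e-15, 1.93e-14 and 1.35e-14, respectively.

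SLC16A3 (ENSG00000141526, chr17:82217934-82261129, plus strand) encodes MCT4, the monocarboxylate carrier known for exporting lactate from glycolytic cells. It was measured at 383, 398 and 399 CPM in NC, 1118, 1144 and 1228 in EUC, 1230.3, 1059 and 970.2 in EPL, 932, 905 and 948 in SUC, 1036, 986 and 955 in SPL. The NC libraries lay closely together and every stimulated library was more than 2-fold above them. This gave a log2 fold change of 1.56 ± 0.0848 (EUC), 1.47 ± 0.0846 (EPL), 1.24 ± 0.0841 (SUC) and 1.34 ± 0.0843 (SPL), with an adjusted p of 1.07e-10, 2.67e-10, 3.48e-09 and 1.12e-09. CSNK1D lies on the opposite strand and shares part of the 5.88% of SLC16A3 exon bases that overlap another gene, and the sources used here do not give the strand setting of the counting.

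SLC2A1 (ENSG00000117394, chr1:42925353-42958893, minus strand) encodes GLUT1, the basal glucose carrier of most cells. It was measured at 366, 369 and 369 CPM in NC, 481, 463 and 419 in EUC, 457, 465 and 432 in EPL, 328, 309 and 297 in SUC, 365, 344 and 333 in SPL. All 6 E. coli BEV libraries lay above NC, whereas the SUC and SPL libraries lay below it. Against NC the log2 fold change was 0.31 ± 0.0738 (EUC), 0.30 ± 0.0738 (EPL), -0.24 ± 0.0739 (SUC) and -0.08 ± 0.0739 (SPL), with an adjusted p of 0.00298, 0.00391, 0.0193 and 0.439. The rise was small, and its call was lost without any single NC library (adjusted p between 0.0111 and 0.0174), without EUC1 (0.0122) or EUC2 (0.0125) in EUC, without EPL2 (0.0193) in EPL, and with upper quartile or total count scaling in both. In SUC the value of -0.24 did not pass the test. A fall passed with DESeq2 (adjusted p = 0.00362) and, by edgeR, with upper quartile scaling (0.00385) or total counts (0.00278). It also passed by edgeR with the replicate number as a block (0.00986) and without EUC3, EPL1 and SUC3 (0.00822).

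SLC2A3, which encodes the high-affinity carrier GLUT3, was close to the limit of detection, with 1.09 to 2.26 CPM in NC and 2.04 to 3.12 CPM in stimulated cells. Its log2 fold change was 0.51 (EUC), 0.37 (EPL), 0.60 (SUC) and 0.51 (SPL), with none called. SLC2A14 is nearly identical in sequence to SLC2A3 and changed the other way in these counts, so the division of reads between both is uncertain.

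HIF1A (ENSG00000100644, chr14:61695513-61748259, plus strand) was measured at 55.3, 50.4 and 52.0 CPM in NC, 131, 139 and 136 in EUC, 119.9, 131 and 141 in EPL, 102, 93.8 and 96.4 in SUC, 109, 92.5 and 112 in SPL. The groups fell into 3 levels without overlap: NC lowest, the S. aureus BEV groups between, and the E. coli BEV groups highest. The log2 fold change against NC was 1.37 ± 0.0890 (EUC), 1.31 ± 0.0889 (EPL), 0.89 ± 0.0886 (SUC) and 0.99 ± 0.0887 (SPL), with an adjusted p of 1.29e-09, 2.23e-09, 4.91e-07 and 1.07e-07. It was a DEG in EUC and EPL and lay just below the 2-fold threshold in SPL. HIF-1 alpha is regulated mainly through breakdown of the protein, which was not measured here.

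The 3 hexokinases, which trap glucose as glucose 6-phosphate, did not move together. HK3 (ENSG00000160883, chr5:176880869-176899346, minus strand), the isoform typical of myeloid cells, was measured at 26.6, 26.8 and 28.9 CPM in NC, 15.1, 15.2 and 16.1 in EUC, 22.4, 16.7 and 13.5 in EPL, 14.9, 16.03 and 16.3 in SUC, 16.5, 18.3 and 17.8 in SPL. Every stimulated library lay below the 3 NC libraries, and EPL1 was the highest of them. HK3 fell, with a log2 fold change of -0.83 ± 0.135 (EUC), -0.65 ± 0.134 (EPL), -0.80 ± 0.135 (SUC) and -0.65 ± 0.134 (SPL) and an adjusted p of 8.73e-05, 0.000883, 0.000177 and 0.00108. HK1, the broadly expressed isoform, was 55.4 to 63.4 CPM in NC and 65.0 to 75.7 CPM in stimulated cells, which did not overlap, yet its log2 fold changes of 0.16 (EUC), 0.22 (EPL), 0.18 (SUC) and 0.21 (SPL) did not pass the test. HK2, the inducible isoform, changed by -0.05 (EUC), -0.03 (EPL), -0.30 (SUC) and -0.28 (SPL) and also did not pass it.

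**Figure D2:**
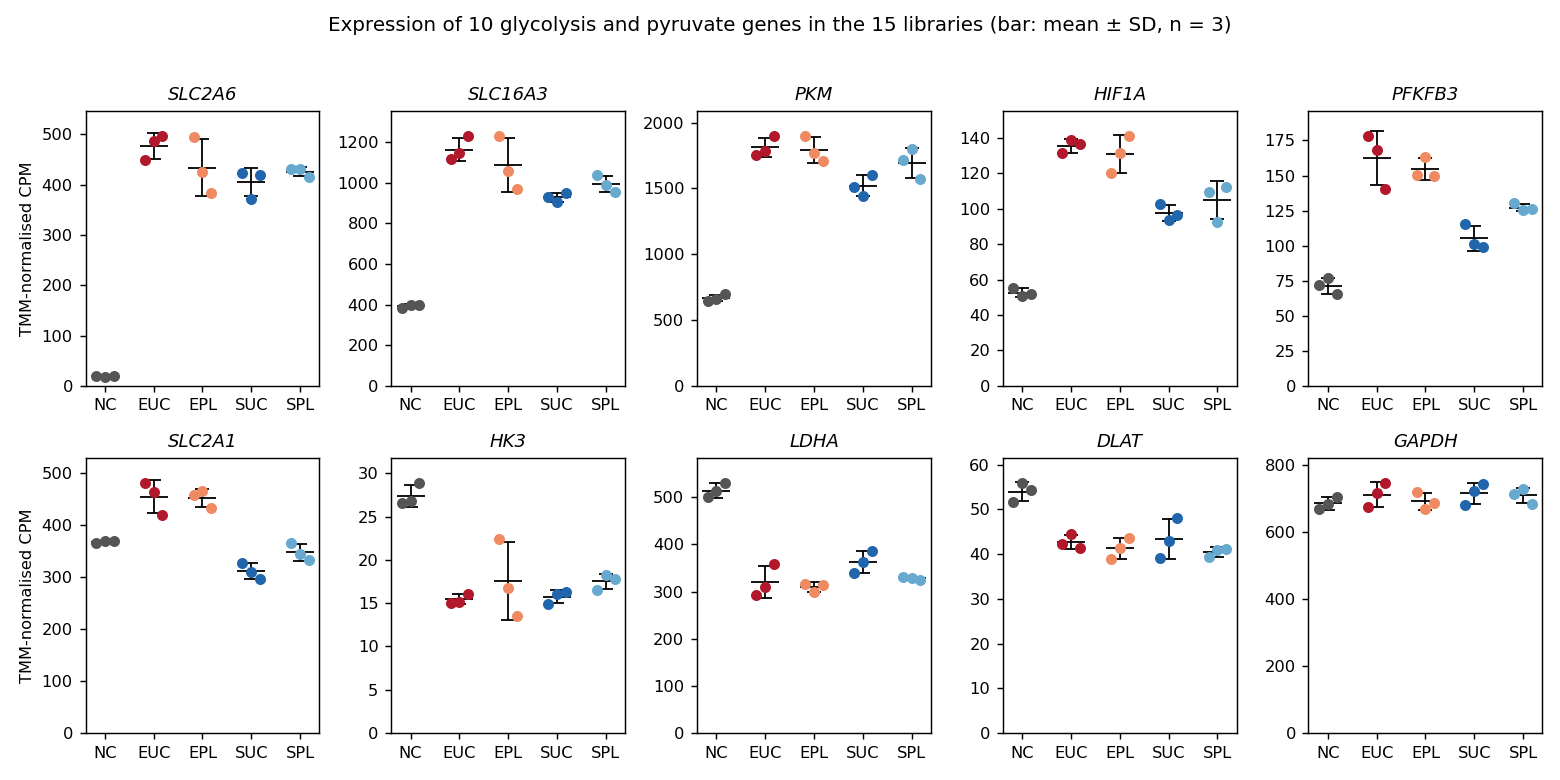
Each panel shows one gene as TMM-normalised CPM on an axis from 0, with one point per library in the 5 groups and the mean ± SD (n = 3) in black. SLC2A6 rises from 16.8 to 20.2 CPM in NC to at least 372 CPM in every stimulated library, PKM and SLC16A3 more than double, HK3, LDHA and DLAT lie below NC in all 12, and GAPDH overlaps throughout.

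The enzymes between glucose 6-phosphate and the trioses showed no called change. None of the 7 genes GPI, PFKL, PFKM, PFKP, ALDOA, ALDOC and TPI1 passed the edgeR test in any of the 4 comparisons, and 2, 3, 0 and 1 of them had an unadjusted p of at most 0.05 in EUC, EPL, SUC and SPL, as did 48.1%, 47.1%, 40.4% and 42.2% of all genes. Without EUC3, EPL1 and SUC3, 1 rose and 1 fell in EUC and 2 fell in EPL. The 3 subunits of phosphofructokinase, the committed step of glycolysis, had log2 fold changes of -0.01 to 0.19 for PFKL, -0.23 to -0.08 for PFKP and -0.02 to 0.27 for PFKM. ALDOA changed by 0.38 (EUC), -0.04 (EPL), 0.39 (SUC) and 0.45 (SPL). Only 1166 counts fell on ALDOA over all 15 libraries, and 54.2% of its exon bases are shared with another annotated gene, so its level is uncertain.

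The enzymes that make and remove fructose 2,6-bisphosphate, the strongest activator of phosphofructokinase, diverged. PFKFB3 (ENSG00000170525, chr10:6144934-6254644, plus strand), which mainly makes it, was measured at 71.8, 77.0 and 65.2 CPM in NC, 178, 168 and 141 in EUC, 151, 163 and 149.7 in EPL, 115, 101 and 98.9 in SUC, 130.1, 125 and 126 in SPL. All stimulated libraries lay above NC, and the E. coli BEV libraries lay above the S. aureus BEV libraries. The log2 fold change was 1.19 ± 0.0968 (EUC), 1.12 ± 0.0967 (EPL), 0.56 ± 0.0964 (SUC) and 0.83 ± 0.0965 (SPL), with an adjusted p of 2.49e-08, 5.77e-08, 0.000219 and 2.62e-06, and the gene was a DEG in EUC and EPL. PFKFB4, a second form of the enzyme, was 17.0 to 19.4 CPM in NC and 11.2 to 21.4 CPM in stimulated cells, and its log2 fold change was -0.33 (EUC), -0.11 (EPL), -0.58 (SUC) and -0.40 (SPL). It fell in SUC (adjusted p = 0.00477), a call that was lost without NC1, NC2, SUC1 or SUC2.

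Of the 6 genes of lower glycolysis, PKM rose and the other 5 did not pass the test in any group. PKM (ENSG00000067225, chr15:72199029-72231819, minus strand) encodes pyruvate kinase M, which makes pyruvate and ATP in the last step of glycolysis. It was measured at 645, 660.0 and 696 CPM in NC, 1756, 1781 and 1897 in EUC, 1899, 1769 and 1705 in EPL, 1512, 1445 and 1603 in SUC, 1713, 1798 and 1574 in SPL. Each stimulated library was more than 2-fold above each NC library. The log2 fold change was 1.44 ± 0.0776 (EUC), 1.42 ± 0.0776 (EPL), 1.19 ± 0.0771 (SUC) and 1.34 ± 0.0774 (SPL), with an adjusted p of 9.96e-11, 1.24e-10, 1.95e-09 and 3.37e-10. Gene counts do not separate the spliced forms M1 and M2 of this gene.

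GAPDH (ENSG00000111640, chr12:6534512-6538374, plus strand), the dehydrogenase often used as a reference gene, was measured at 667, 684 and 704 CPM in NC, 674, 715 and 746 in EUC, 719, 669 and 687 in EPL, 682, 722 and 744 in SUC, 714, 729 and 684 in SPL. The groups overlapped, and the log2 fold change was 0.05 ± 0.0695 (EUC), 0.01 ± 0.0695 (EPL), 0.06 ± 0.0695 (SUC) and 0.05 ± 0.0695 (SPL) with an adjusted p of 0.572, 0.900, 0.543 and 0.635. These small values turned negative with upper quartile scaling (-0.04, -0.07, -0.02 and -0.02) and with total counts (-0.11, -0.11, -0.06 and -0.07). ENO1, PGK1, PGAM1 and ENO2 had log2 fold changes between -0.23 and 0.18. The summed level of the 6 genes was 4048 ± 137 CPM in NC and 5381 ± 497, 5163 ± 406, 5049 ± 338 and 5180.4 ± 257 CPM in EUC, EPL, SUC and SPL (mean ± SD, n = 3).

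LDHA (ENSG00000134333, chr11:18394560-18408425, plus strand) encodes the subunit of lactate dehydrogenase that favours the reduction of pyruvate to lactate. It was measured at 499.7, 513 and 530.2 CPM in NC, 292, 309.5 and 359 in EUC, 316, 298 and 314 in EPL, 339, 364 and 386 in SUC, 329.8, 328 and 325 in SPL. No stimulated library reached the lowest NC library. LDHA fell, with a log2 fold change of -0.68 ± 0.0810 (EUC), -0.73 ± 0.0810 (EPL), -0.50 ± 0.0808 (SUC) and -0.65 ± 0.0809 (SPL) and an adjusted p of 2.5e-06, 1.19e-06, 0.000111 and 6.03e-06. LDHA therefore moved in the opposite direction to PKM, which makes its substrate, and to SLC16A3, which carries its product. LDHB, the other subunit, had 1062 counts in all and shares 33.4% of its exon bases with another gene, and its log2 fold changes of -0.52 (EUC), -0.59 (EPL), -0.16 (SUC) and -0.20 (SPL) did not pass the test.

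Pyruvate dehydrogenase links glycolysis to the TCA cycle. DLAT (ENSG00000150768, chr11:112025408-112064404, plus strand), its acetyltransferase core subunit, was measured at 51.7, 55.9 and 54.4 CPM in NC, 42.2, 44.5 and 41.4 in EUC, 38.9, 41.5 and 43.6 in EPL, 39.2, 43.0 and 48.1 in SUC, 39.3, 41.0 and 41.2 in SPL. All stimulated libraries lay below NC by a small margin. DLAT fell, with a log2 fold change of -0.34 ± 0.0852 (EUC), -0.39 ± 0.0853 (EPL), -0.32 ± 0.0852 (SUC) and -0.42 ± 0.0854 (SPL) and an adjusted p of 0.00397, 0.00152, 0.00884 and 0.000988. The call was lost in EUC without NC2, NC3, EUC1, EUC2 or EUC3 (adjusted p between 0.0110 and 0.0254), in EPL without NC2 (0.0120), in SUC without any one of NC1, NC2, NC3, SUC1 and SUC2 (0.0158 to 0.0673), and in SPL without SPL1 (0.0104). PDHA1, which encodes a subunit of the decarboxylase part, fell in EPL (log2 fold change -0.41, adjusted p = 0.00781) and had values of -0.26, -0.06 and -0.22 in EUC, SUC and SPL. The call was lost without any one of the 6 libraries. PDHB and the kinase PDK1 passed the test in none.

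The TCA cycle genes changed little, and the number called depended on the libraries. Of the 9 genes, none rose by edgeR, and IDH2 and MDH1 fell in EPL. At an unadjusted p of at most 0.05, in either direction, there were 3, 5, 0 and 3 in EUC, EPL, SUC and SPL, where 40.4% to 48.1% of all genes were. Without EUC3, EPL1 and SUC3, FH, IDH2, MDH1 and MDH2 fell in EUC, the same 4 and SUCLG1 fell in EPL, and IDH2, MDH1 and MDH2 fell in SUC and in SPL. MDH1 also fell in EUC with DESeq2 and with the replicate block. IDH2, the mitochondrial isocitrate dehydrogenase that uses NADP, changed by -0.32 (EUC), -0.38 (EPL), -0.20 (SUC) and -0.28 (SPL), and MDH1, the cytosolic malate dehydrogenase, by -0.43 (EUC), -0.53 (EPL), -0.20 (SUC) and -0.37 (SPL). Both calls were lost without NC2, NC3, EPL2 or EPL3, and that of IDH2 also without NC1. MDH1 was 193 to 205 CPM in NC, 122, 141 and 183 CPM in EUC and 145, 171 and 205 CPM in SUC, so that EUC3 and SUC3 were the highest of their groups. CS, which encodes citrate synthase and admits acetyl groups to the cycle, was 193 to 200 CPM in NC and 202 to 220 CPM in stimulated cells without overlap, but its log2 fold changes of 0.12 (EUC), 0.11 (EPL), 0.06 (SUC) and 0.12 (SPL) did not pass the test. IDH3A, OGDH, SUCLG1, SUCLA2, FH and MDH2 had values between -0.35 and 0.19. Of the exon bases of IDH3A, 38.8% are shared with other annotated genes.

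Levels were compared between genes as CPM per kb of exon in GENCODE 44, counting the exons of all transcripts of a gene. The ranks between genes depend on this length and include genes with shared exons, such as ALDOA. ENO1 and GAPDH ranked 1 and 2 of the 38 both in NC, with 352 and 286 CPM per kb, and in EUC, with 398 and 297. SLC2A6 moved from rank 28 in NC (5.35 CPM per kb) to rank 4 in EUC (135) and rank 5 in SUC (115). PKM moved from rank 8 to 3 and SLC16A3 from 11 to 5 in EUC, while LDHA went from rank 6 to 12. The summed CPM of all 38 genes was 8036 ± 213 in NC and 10475 ± 691, 10054 ± 745, 9697 ± 501 and 9916 ± 357 in EUC, EPL, SUC and SPL. Without PKM, SLC16A3 and SLC2A6 the other 35 summed to 6956 ± 180.0 in NC and to 7023 ± 538, 6743 ± 464, 6844 ± 421 and 6802 ± 222, which overlaps NC. Most of the added RNA of the set was therefore from these 3 genes.

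Ratios between genes with the same role were taken within each library, as the log2 of the ratio of CPM and with no test. Of 10 pairs, 3 did not overlap between NC and the 12 stimulated libraries. Each of these 3 holds a gene that rose or fell in all 4 groups (SLC2A6, PFKFB3 or HK3). Among single genes, 17.5% of all tested lay above and 16.1% below every NC library. The share among other pairs of genes was not computed. SLC2A6 to SLC2A1 was -4.46 to -4.19 in NC and -0.17 to 0.50 in stimulated cells, so that both carriers came to similar CPM. PFKFB4 to PFKFB3 was -1.99 to -1.94 in NC and -3.69 to -2.81 in stimulated cells. HK3 to HK1 was -1.22 to -1.06 in NC and -2.27 to -1.76 in stimulated cells. HK2 to HK1 and PFKP to PFKL overlapped with NC, as did the other 5 pairs.

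**Figure D3:**
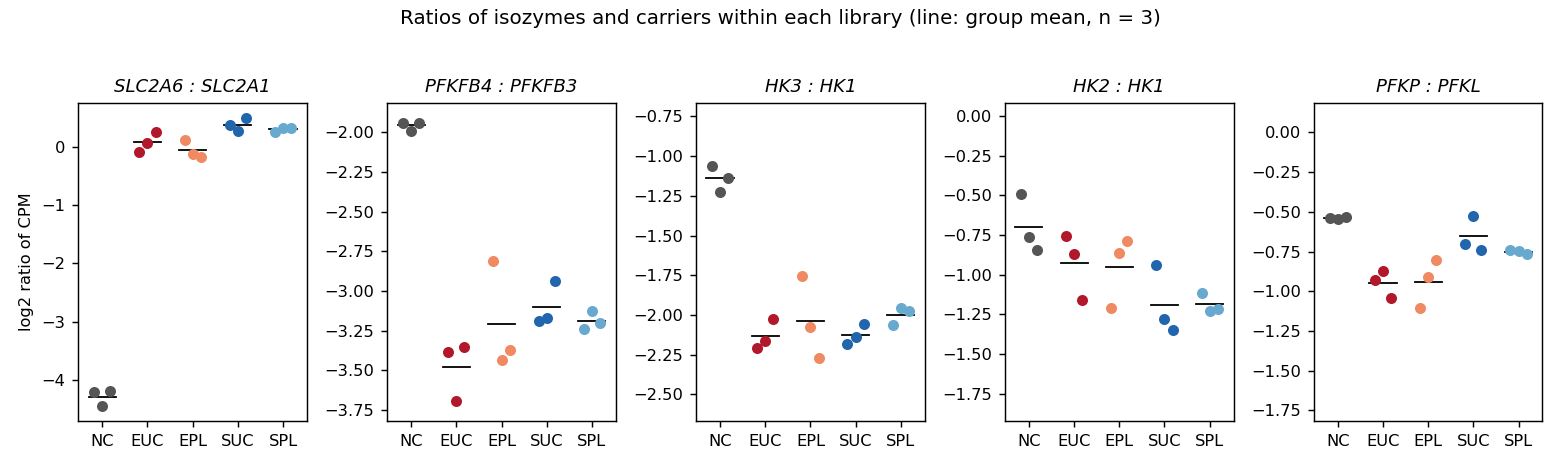
The log2 ratio of CPM within each library is shown for 5 pairs of genes, each on its own axis, with one point per library and a line at the group mean (n = 3). The first 3 pairs leave no overlap between NC and the stimulated libraries, and SLC2A6 to SLC2A1 changes the most, by 4.46 on average.

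The isolation methods were compared within each species to ask whether PL and UC vesicles gave different responses. None of the 38 genes passed the edgeR test between EPL and EUC, where 0.0% of all genes did, nor between SPL and SUC, where 0.00581% did. DESeq2 also called none of the 38 in either comparison, nor did edgeR without EUC3, EPL1 and SUC3. At an unadjusted p of at most 0.05 there were 1 and 2 of the 38 genes, beside 604 and 1000 of all 17198 genes. The 95% intervals bound the differences: between EPL and EUC all 38 lay within 1 of 0 on the log2 scale and 32 within 0.5, and between SPL and SUC 38 and 33 did. The largest value was -0.42 for ALDOA in EPL against EUC (95% CI -0.83 to -0.02, unadjusted p = 0.0425). For SLC2A6 the intervals were -0.34 to 0.07 and -0.13 to 0.28, for PKM -0.18 to 0.14 and 0.00 to 0.32, and for LDHA -0.22 to 0.12 and -0.32 to 0.02. PFKFB3 was 0.27 higher in SPL than in SUC (95% CI 0.07 to 0.48, unadjusted p = 0.0112, adjusted p = 0.803). The difference in method effect between the species passed the test for 0 of the 38 genes, with 0.0% of all genes called.

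The E. coli and S. aureus BEV groups were compared as the mean of EUC and EPL against the mean of SUC and SPL, at doses that differed. SLC2A1, HIF1A and PFKFB3 were higher after E. coli BEVs, where 2.87% of all genes were, and none of the 38 was lower by edgeR, beside 1.0% of all. None was a DEG in this comparison, where 0.663% of all genes were higher and 0.0233% lower DEGs. The log2 difference was 0.46 ± 0.0523 for SLC2A1 (adjusted p = 2.31e-05), 0.40 ± 0.0615 for HIF1A (adjusted p = 0.000438) and 0.45 ± 0.0674 for PFKFB3 (adjusted p = 0.000311), that is 1.32- to 1.38-fold. In each of the 3 genes all 6 E. coli BEV libraries lay above all 6 S. aureus BEV libraries. The 3 genes were picked by the test on these same libraries, so this separation adds no support. The share of all genes that separate in this way was not computed. The genes that rose most did not pass the threshold in this comparison by edgeR, with 0.13 (95% CI -0.01 to 0.28) for SLC2A6, 0.17 (0.05 to 0.28) for PKM and 0.23 (0.10 to 0.35, adjusted p = 0.0242) for SLC16A3. SLC16A3 passed it with DESeq2 (adjusted p = 0.00208) and without EUC3, EPL1 and SUC3 (adjusted p = 0.00927). Among the genes that fell, the difference was -0.01 (-0.22 to 0.19) for HK3 and -0.13 (-0.25 to -0.01) for LDHA. When the test asked for a change above 1.2-fold, none of the 3 calls remained, while 202 of all 17198 genes were higher. Without EUC3, EPL1 and SUC3 the count was 5 higher and 1 lower, beside 874 and 575 of all 17584 genes.

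**Figure D4:**
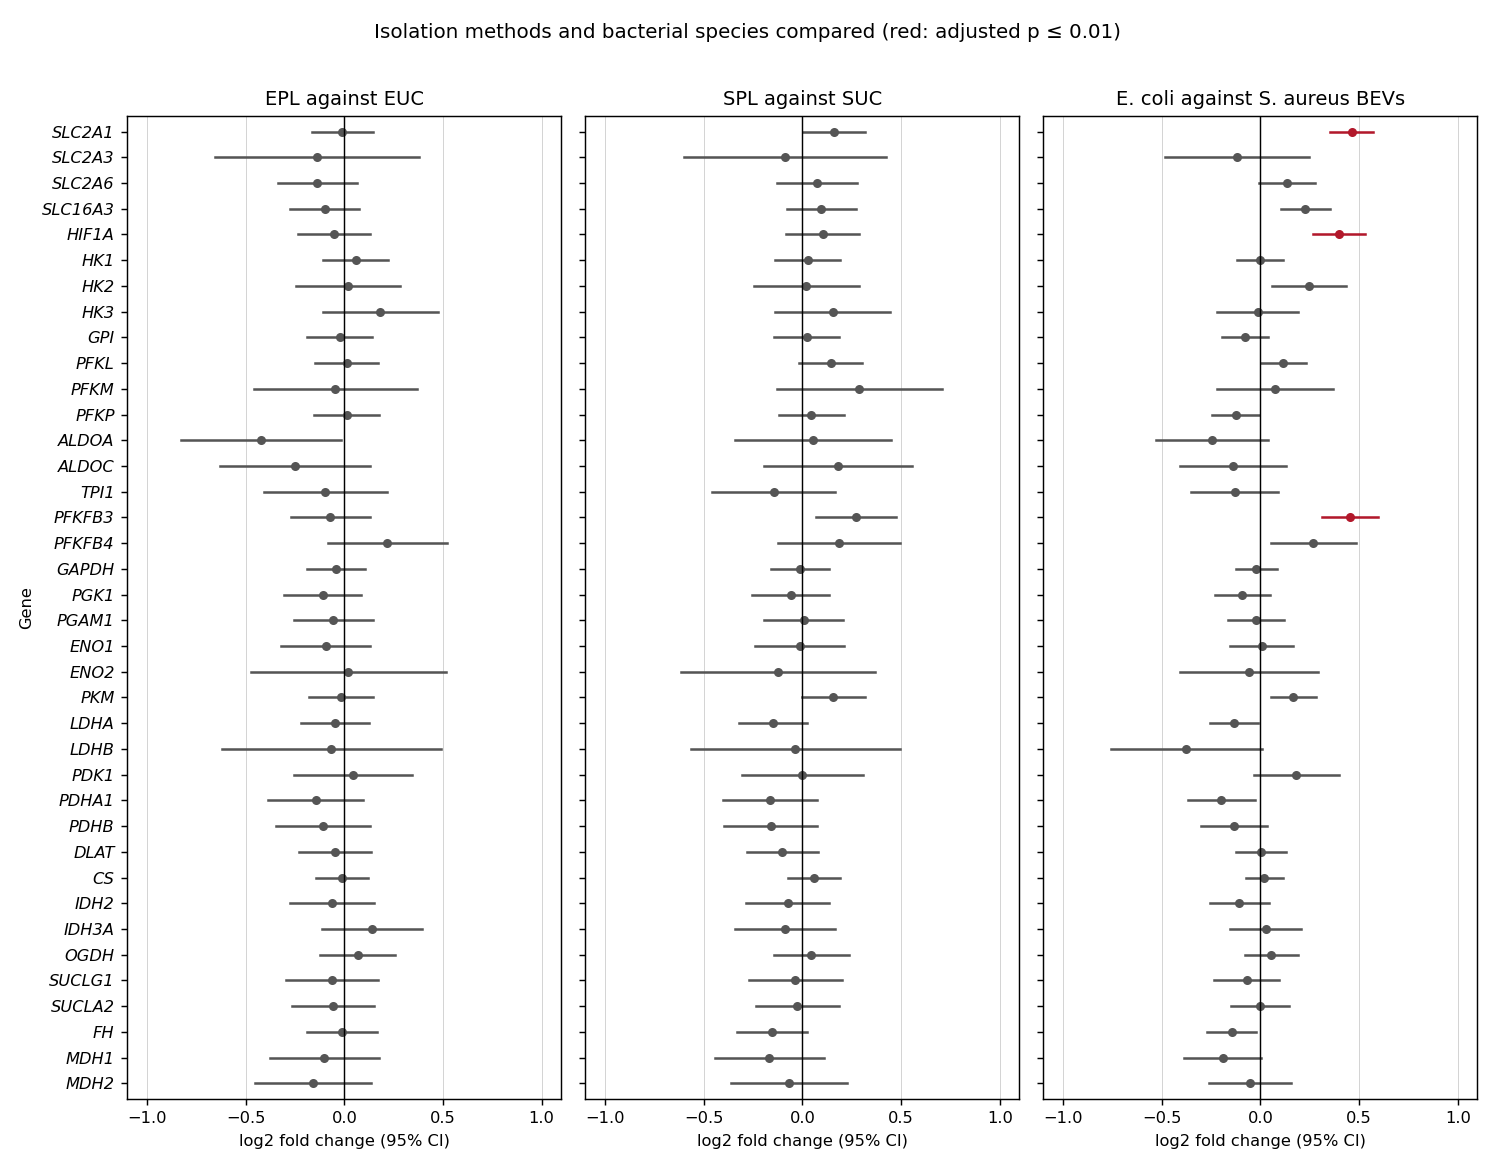
Points give the log2 fold change of each of the 38 genes and bars its 95% confidence interval for EPL against EUC, SPL against SUC, and E. coli against S. aureus BEVs, with red for an adjusted p of at most 0.01. No gene is red in the 2 method panels, and SLC2A1, HIF1A and PFKFB3, at 0.40 to 0.46, are red in the species panel.

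The neighbouring pathways were read from lists of genes that were chosen with earlier results of these data known. Their counts stand beside 16.5%, 16.0%, 12.4% and 13.3% of all genes that rose in EUC, EPL, SUC and SPL, and 14.0%, 13.2%, 9.15% and 10.6% that fell. Without EUC3, EPL1 and SUC3 these shares are 19.5%, 20.5%, 16.0% and 18.4% that rose, and 18.5%, 19.3%, 13.1% and 16.8% that fell. Of 19 further glycolysis and gluconeogenesis genes, 10 were tested, and 0 rose in any group while 3, 2, 2 and 2 fell in EUC, EPL, SUC and SPL. Without the 3 libraries 1 rose in EUC, and 4, 4, 3 and 4 fell. FBP1, the fructose 1,6-bisphosphatase of gluconeogenesis, fell by 2.47 (EUC), 1.99 (EPL), 1.46 (SUC) and 1.87 (SPL) on the log2 scale. LDHD, which oxidises D-lactate, fell by 2.04 (EUC), 2.21 (EPL), 1.53 (SUC) and 1.997 (SPL). Of 15 other carriers of sugars and monocarboxylates, 12 were tested and none rose by edgeR, while 6, 5, 4 and 4 fell, or 8, 7, 5 and 6 without the 3 libraries. At an unadjusted p of at most 0.05, in either direction, there were 10, 11, 8 and 9 of the 12, beside 48.1%, 47.1%, 40.4% and 42.2% of all genes. Among them were SLC2A9, a urate carrier, at -1.27 (EUC), -1.16 (EPL), -0.88 (SUC) and -0.88 (SPL), and SLC2A14 at -1.82 (EUC), -1.90 (EPL), -0.95 (SUC) and -1.26 (SPL). SLC2A6 and SLC16A3 were thus accompanied by no rise in these other carriers, which had a median of -0.55, -0.53, -0.35 and -0.42.

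Of 7 pentose phosphate pathway genes, 3 rose and 1 fell in each group, and without the 3 libraries 3 rose in each and 3, 2, 3 and 3 fell. Up-regulated DEGs were 2, 2, 1 and 2 of the 7 in EUC, EPL, SUC and SPL, beside 9.43%, 9.38%, 6.82% and 7.76% of all genes. Only PGD is named here. PGD, which makes NADPH, rose by 1.198 (EUC), 1.14 (EPL), 1.08 (SUC) and 1.17 (SPL). ME1, cytosolic malic enzyme and another source of NADPH, was measured at 56.4, 50.3 and 54.9 CPM in NC, 280.3, 317 and 375 in EUC, 299, 289 and 312 in EPL, 252, 256 and 286 in SUC, 261, 256 and 287 in SPL and rose by 2.59 (EUC), 2.48 (EPL), 2.29 (SUC) and 2.32 (SPL). It stood in a list of 22 further genes of pyruvate dehydrogenase and the TCA cycle, all tested, of which 4, 4, 3 and 4 rose and 4, 4, 3 and 3 fell in EUC, EPL, SUC and SPL. Without the 3 libraries 5, 5, 4 and 5 rose and 6, 6, 5 and 7 fell. In that list the pyruvate dehydrogenase kinase PDK2 fell, by 1.31 (EUC), 0.88 (EPL), 0.72 (SUC) and 0.78 (SPL), as did PDK3, by 1.42 (EUC), 1.09 (EPL), 0.93 (SUC) and 1.02 (SPL). PDK4 was measured at 0.830, 1.47 and 1.49 CPM in NC, 0.974, 0.448 and 0.197 in EUC, 0.852, 0.891 and 0.810 in EPL, 2.11, 1.996 and 2.51 in SUC, 10.5, 7.33 and 8.88 in SPL. It stood highest in SPL, where it rose by 2.80 (adjusted p = 6.83e-07), and it was -2.69 in E. coli against S. aureus BEVs (adjusted p = 3.11e-06). That comparison takes the mean of SUC and SPL, whose PDK4 levels did not overlap. In SPL against SUC, 0 of the 22 genes passed by edgeR with all libraries. DESeq2 called 1 of the 22 as higher, beside 5 of all 17198 genes. Without the 3 libraries edgeR also called 1, beside 5 higher and 1 lower of all 17584.

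Of 10 glycogen genes, all tested, 1 rose in each group and 5, 6, 5 and 5 fell, or 6, 6, 5 and 5 without the 3 libraries. PYGL, a glycogen phosphorylase, fell by 1.19 (EUC), 1.14 (EPL), 0.80 (SUC) and 0.97 (SPL), and PGM1, which joins glycogen to glycolysis, by 1.01 (EUC), 1.28 (EPL), 0.82 (SUC) and 0.78 (SPL). Of 8 genes of the citrate and itaconate branch and the malate-aspartate shuttle, 1 rose in each group and 3, 4, 1 and 1 fell, or 5, 5, 3 and 3 without the 3 libraries. The one that rose was ACOD1, which makes itaconate from a TCA cycle intermediate and is known as a gene of activated macrophages. It had 0 counts in the 3 NC libraries together and 105, 93, 47 and 78 in EUC, EPL, SUC and SPL. With 3 counts over the NC group as the limit that a count of 0 allows, this was at least 37.4-, 32.6-, 16.9- and 28.1-fold higher, which covers counting error only. The citrate carrier SLC25A1 fell by 0.94 (EUC), 1.00 (EPL), 0.66 (SUC) and 0.75 (SPL).

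HIF control and further HIF targets were split between both directions. Of 22 genes, 20 were tested, and 8, 7, 4 and 5 rose while 4, 4, 3 and 5 fell. Without the 3 libraries 8, 9, 4 and 7 rose and 5, 4, 5 and 7 fell. ADM, a vasodilator peptide, rose by 3.17 (EUC), 2.93 (EPL), 2.70 (SUC) and 2.75 (SPL), from 19 counts summed over NC to between 116 and 163 summed over each stimulated group. VEGFA, the angiogenic growth factor, rose by 1.65 (EUC), 1.73 (EPL), 1.49 (SUC) and 1.64 (SPL). CA12, a carbonic anhydrase, was 3.47 (EUC), 3.01 (EPL), 2.37 (SUC) and 2.22 (SPL) with 5 counts in NC and was called in EUC. ANKRD37 was 1.12 (EUC), 1.27 (EPL), 0.69 (SUC) and 1.05 (SPL) and was called in EPL. MXI1, a MYC antagonist, fell by 1.33 (EUC), 1.13 (EPL), 1.12 (SUC) and 1.18 (SPL), and NDRG1, a gene known to respond to hypoxia, by 1.09 (EUC), 0.99 (EPL), 0.74 (SUC) and 0.70 (SPL). HILPDA, a lipid droplet protein, was -0.76 (EUC), -1.11 (EPL), -0.62 (SUC) and -0.98 (SPL) and was called in all but SUC. Of the 20, 3 differed between the species, beside 2.87% of all genes that were higher and 1.0% that were lower. DDIT4 and BHLHE40 were higher after E. coli BEVs, by 0.51 and 0.55, and NDRG1 was lower, at -0.32. DDIT4 and BHLHE40 were named after their values were seen.

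**Figure D5:**
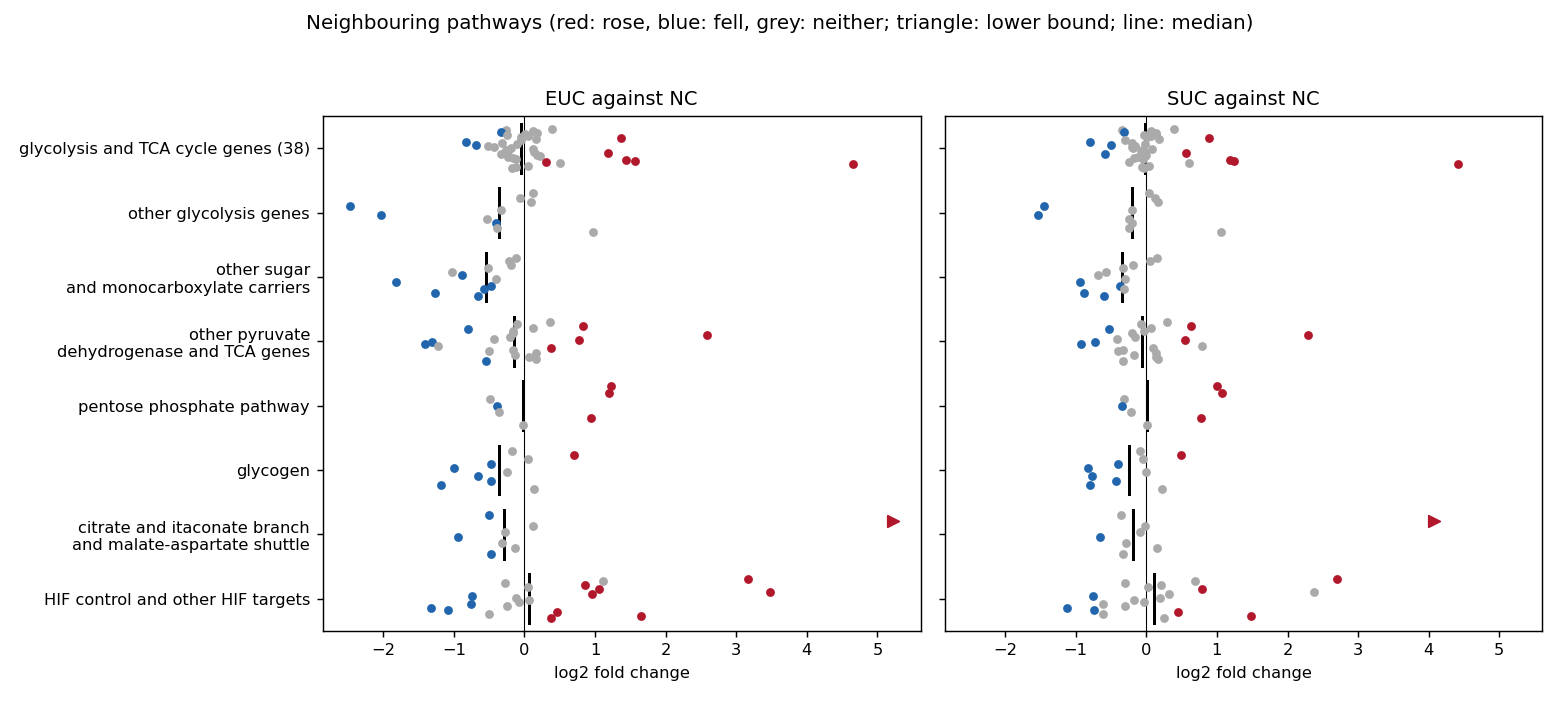
Each point is the log2 fold change of one tested gene against NC in EUC (left) and SUC (right), by list, with red for genes that rose, blue for genes that fell and grey for the rest, and a line at the median of each list. ACOD1, with no counts in NC, is drawn as a triangle at its lower bound. The other carriers and the glycogen genes lie mostly below 0, and ME1 and PGD stand to the right.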

How the data were processed

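RNA of 15 THP-1 libraries was sequenced in pairs of reads on a NovaSeq by the authors, who checked reads with FastQC 0.11.5 and aligned them to hg38 with HISAT2 2.1.0. The submitters' processing notes also name StringTie 1.3.3b, DESeq 1.28.0 and featureCounts. The sources used here name neither the annotation release nor the strand setting. The deposited table holds raw read counts per gene for 60286 genes, of which 23219 had none, with no column left unused. The 38 genes and all lists were chosen with earlier results of these data known.

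Counts were scaled by TMM and fitted in one model of 5 groups with edgeR 4.0.16 (R 4.3.3; glmQLFit, glmQLFTest, filterByExpr), with Benjamini-Hochberg adjustment over 17198 genes. SE was |log2 fold change| divided by the root of F. The threshold for a rise or fall was an adjusted p of 0.01, and DEGs also changed at least 2-fold, the thresholds of the study, which used DESeq2. Full values are given for genes that were DEGs against NC in at least 1 group or called between species or methods, for the further genes called in at least 2 groups with the largest mean change, and for GAPDH. In the lists, DEGs are named, at most 4 per direction by mean change, but not every DEG of the pentose phosphate list is named. Alternatives were RLE, upper quartile and total count scaling, DESeq2 1.42.0, no filter, a replicate block, a 1.2-fold requirement, only the groups compared, an adjusted p of 0.05, each replicate left out, and EUC3, EPL1 and SUC3 left out, the last chosen after seeing the data. Gene positions and exon lengths are from GENCODE 44.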

Additional observations from a re-analysis of the deposited data

Results flagged for a closer look

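SLC2A1, HIF1A and PFKFB3 stood out because the effect against non-stimulated cells differed between E. coli and S. aureus BEVs by a test of the difference itself (edgeR's quasi-likelihood test, adjusted over 17198 genes). SLC2A1, which encodes the glucose carrier GLUT1, was higher after E. coli BEVs by 0.46 on the log2 scale (95% CI 0.35 to 0.57, adjusted p = 2.31e-05). It lay above NC in EUC and EPL and below it in SUC and SPL. Against NC the lower level was called in neither SUC nor SPL (adjusted p = 0.0193 and 0.439). The rise in EUC and EPL lost its call with upper quartile or total count scaling. HIF1A was higher after E. coli BEVs by 0.40 (95% CI 0.27 to 0.53, adjusted p = 0.000438) and PFKFB3 by 0.45 (95% CI 0.31 to 0.60, adjusted p = 0.000311), both above NC in all 4 groups. With each stimulated library left out in turn the 3 differences lay between 0.36 and 0.49 and kept their calls. The S. aureus BEVs were given at 10 μg/mL and the E. coli BEVs at 1 μg/mL, so species and dose cannot be told apart.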

How the results depend on the processing

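The counts of genes that rose against NC, and the DEGs of the 4 comparisons, stayed within 1.5-fold of the main count under every alternative run. The counts that fell did not. Main counts of 3, 6, 4 and 3 genes that fell in EUC, EPL, SUC and SPL became 7, 11, 5 and 4 with upper quartile scaling, 12, 13, 7 and 8 with total counts, 2, 2, 2 and 2 when a change above 1.2-fold was required, 7, 10, 5 and 6 at an adjusted p of 0.05, and 12, 14, 9 and 8 without EUC3, EPL1 and SUC3. Of all genes 17.9%, 16.9%, 11.6% and 13.3% fell with upper quartile scaling, and 20.9%, 18.9%, 13.4% and 15.5% with total counts. Without the 3 libraries 18.5%, 19.3%, 13.1% and 16.8% fell. With the 1.2-fold requirement 1644, 1534, 989 and 1160 of all 17198 genes fell. At an adjusted p of 0.05, 3388, 3279, 2405 and 2760 of them fell. In SPL 10 fell when only SPL and NC were fitted, beside 3214 of all 15930 genes then tested. With one replicate left out the count ranged from 2 to 5 in EUC, 2 to 6 in EPL, 2 to 4 in SUC and 2 to 3 in SPL. Of all genes 1886 to 2386, 1758 to 2272, 1176 to 1303 and 1313 to 1434 then fell. In E. coli against S. aureus BEVs, 3 higher and 0 lower became 0 higher with the 1.2-fold requirement. Without the 3 libraries the count was 5 higher and 1 lower. Of all genes 2.87% were higher and 1.0% lower in the main fit. There were 202 higher and 26 lower of 17198 with the 1.2-fold requirement, and 874 and 575 of 17584 without the 3 libraries. The ratio of SLC2A3 to SLC2A1 rose by 0.50 and ranged from 0.17 to 0.70 with one replicate left out. GAPDH turned negative with upper quartile scaling (-0.042, -0.069, -0.016 and -0.020), with total counts (-0.11, -0.11, -0.059 and -0.065) and, in EPL, without NC1 (-0.0058), EPL1 (-0.016) or the 3 libraries (-0.012), and with one replicate left out it ranged from -0.016 to 0.035 in EPL. Except where the construction of the alternative shows it, the cause was not tested.

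Libraries with the same replicate number did not deviate together on average. Their 30 pairs had a mean correlation of deviations of 0.0095, from -0.452 to 0.525. The 60 pairs with different numbers had -0.0036, from -0.484 to 0.488, so the numbers were not treated as pairs. The mean of the same-number pairs joined values of both signs. In the order of the numbers they were 0.393, 0.050 and 0.525 between EUC and SUC, and -0.452, 0.094 and -0.341 between EUC and EPL. EUC3, EPL1 and SUC3 deviated in a like direction across groups, at 0.525 (EUC3 and SUC3), 0.488 (EUC3 and EPL1) and 0.443 (EPL1 and SUC3). With the replicate number as a block, 6, 6, 5 and 5 of the 38 genes rose and 4, 6, 5 and 3 fell. Of all 17198 genes 2816, 2739, 2108 and 2283 then rose, and 2410, 2248, 1570 and 1818 fell. Intervals were widest for genes with few counts, such as SLC2A3 with 563 counts in all, and a change in it smaller than its interval was not detectable.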

Other observations

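The summed CPM of the 9 TCA cycle genes was 1234, 1266 and 1269.9 in the NC libraries, 1039.9, 1101 and 1244 in EUC, 1173, 1051 and 1039 in EPL, 1087, 1159 and 1287 in SUC and 1107, 1176 and 1122 in SPL. EUC3, EPL1 and SUC3, the libraries least like the others within EUC, EPL and SUC, had the highest sum of their group. The same held for the summed lower glycolysis genes, at 4948, 5273 and 5923 CPM in EUC, 5629.9, 4956 and 4902 in EPL and 4790.2, 4927 and 5431 in SUC. What sets these libraries apart was not tested.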
